A study of Mus musculus with 12 samples.

Results

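The 4 Hox clusters of the mouse genome were described from peak lists of 3 methylation states of lysine 4 of histone H3 (H3K4me1, H3K4me2 and H3K4me3) in C2C12 cells, a mouse myoblast line that forms myotubes when serum is withdrawn. The clusters were taken as fixed windows in mm9: HoxA on chromosome 6 (52100001 to 52225000, 125 kb), HoxB on chromosome 11 (96045001 to 96235000, 190 kb), HoxC on chromosome 15 (102745001 to 102880000, 135 kb) and HoxD on chromosome 2 (74485001 to 74615000, 130 kb). Every peak that overlapped a window by at least 1 bp was a member. This gave 220 peaks of the 134900 in all 6 lists, with 77 in HoxA, 20 in HoxB, 123 in HoxC and 0 in HoxD. The windows stand for 38 Hox genes, 10 each of HoxA and HoxB and 9 each of HoxC and HoxD.

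The cells carried no genetic change named in the labels. All were kept for 48 h, to day 2, in differentiation medium with horse serum that held either S2101 at 10 µM, an inhibitor of the histone demethylase LSD1, or vehicle alone. Each mark and treatment had 1 library, so no difference below has a replicate check, and none was tested. H3K4me1 and H3K4me2 came from experiment 1 and H3K4me3 from experiment 2, so mark and experiment cannot be told apart. The number of reads behind each list is unknown, and a library with fewer reads or weaker enrichment can give fewer and narrower peaks. Over all chromosomes the H3K4me1 list held 40432 peaks with vehicle and 20664 with S2101, H3K4me2 21447 and 24444, and H3K4me3 13589 and 14324.

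Hox genes encode homeodomain transcription factors that give cells their position along the body axis and along the limbs. They lie in clusters in which gene order follows the order of expression from head to tail, and adult cells, muscle cells among them, keep part of the Hox pattern of the place they come from. H3K4me3 marks the start sites of active genes, enhancers and promoter edges typically carry H3K4me1, and H3K4me2 is seen at either kind of site. Active stretches of a Hox cluster can carry broad, unbroken H3K4 methylation, whereas silent stretches are held by Polycomb proteins. LSD1, also called Kdm1a, can demethylate H3K4me1 and H3K4me2, whereas H3K4me3 is not its substrate.

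Gene order was taken from the RefSeq table of GRCm38.p6, which held 38 of 38 genes, and no gene position was read onto the mm9 peaks. With rising coordinates HoxA runs from Hoxa2, which patterns the hindbrain and neural crest, through Hoxa3, Hoxa4, Hoxa5, Hoxa6 and Hoxa7 to Hoxa9, Hoxa10, Hoxa11 and Hoxa13, the last of which patterns hands and feet. HoxB runs the other way, from Hoxb13, a gene of the tail end and the prostate, to Hoxb1, which specifies part of the hindbrain. HoxC runs from Hoxc13, known for its part in hair and nail formation, through Hoxc10 and Hoxc9, Hoxc8 and Hoxc6 to Hoxc4. HoxD runs from Hoxd13, which patterns the digits, to Hoxd1.

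The promoters below show what kind of sequence these clusters hold, since start sites rich in the dinucleotide CG are where H3K4me3 is usually found. For each cluster the promoter with the most CG among those in the table is given (RefSeq, GRCm38.p6, 250 bases before the start of transcription to 50 after it, read 5′ to 3′ along the gene). Capitals mark each CG, which reads the same on both strands. The positions on GRCm38.p6 are chr6:52260831-52261130 on the minus strand for Hoxa13, and on the plus strand chr11:96318017-96318316 for Hoxb4, chr15:103034145-103034444 for Hoxc4 and chr2:74667975-74668274 for Hoxd13.
Hoxa13: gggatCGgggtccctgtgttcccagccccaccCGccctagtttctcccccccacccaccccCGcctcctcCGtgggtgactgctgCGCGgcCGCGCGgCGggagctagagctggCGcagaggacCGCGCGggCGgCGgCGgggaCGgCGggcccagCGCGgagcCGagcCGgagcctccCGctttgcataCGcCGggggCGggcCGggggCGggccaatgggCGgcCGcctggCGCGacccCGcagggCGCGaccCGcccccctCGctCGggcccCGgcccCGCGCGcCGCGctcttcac
Hoxb4: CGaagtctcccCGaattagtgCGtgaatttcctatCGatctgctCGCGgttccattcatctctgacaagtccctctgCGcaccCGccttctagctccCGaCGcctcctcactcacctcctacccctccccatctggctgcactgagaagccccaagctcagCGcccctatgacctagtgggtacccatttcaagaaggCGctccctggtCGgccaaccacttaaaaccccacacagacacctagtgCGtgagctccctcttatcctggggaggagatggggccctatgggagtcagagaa
Hoxc4: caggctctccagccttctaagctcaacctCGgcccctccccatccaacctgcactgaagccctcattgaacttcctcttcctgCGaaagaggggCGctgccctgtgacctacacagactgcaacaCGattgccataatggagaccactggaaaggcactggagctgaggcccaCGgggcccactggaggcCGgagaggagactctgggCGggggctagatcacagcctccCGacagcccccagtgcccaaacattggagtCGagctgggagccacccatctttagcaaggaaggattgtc
Hoxd13: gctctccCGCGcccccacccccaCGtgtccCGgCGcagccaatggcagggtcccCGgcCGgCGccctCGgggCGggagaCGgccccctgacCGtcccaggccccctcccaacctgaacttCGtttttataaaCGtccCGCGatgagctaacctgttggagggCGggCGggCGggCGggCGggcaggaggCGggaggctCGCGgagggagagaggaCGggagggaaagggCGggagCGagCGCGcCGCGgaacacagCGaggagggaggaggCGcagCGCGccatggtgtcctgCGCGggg
The Hoxa13 stretch held 45 CG, the Hoxd13 stretch 37, the Hoxb4 stretch 14 and the Hoxc4 stretch 9. The table had 24 promoters for 22 of the 38 genes, with 9 of the 10 HoxA genes, 3 of the 10 HoxB genes (Hoxb1, Hoxb4 and Hoxb8), 1 of the 9 HoxC genes (Hoxc4) and all 9 HoxD genes. Their median was 14.5 CG, against 7 over the table's 32851 promoters of the same length. The 10 HoxD promoters had a median of 20 CG and the 10 HoxA promoters one of 17.5. At least 1 CG stood in 100% of the Hox promoters and in 94.6% of all promoters. The HoxA and HoxD medians thus lay above that of all promoters, but single promoters varied. They ran from 4 to 45 CG in HoxA and from 4 to 37 CG in HoxD. The H3K4 methylation of the windows is described next. No gene was placed on a peak, so a link between CG content and methylation was not tested.

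The HoxA and HoxC windows were covered over long stretches by H3K4me2 and H3K4me3, the HoxB window held scattered small peaks, and the HoxD window held no peak of any mark. With vehicle, H3K4me2 covered 36.0% of the HoxA window, 2.68% of HoxB and 43.6% of HoxC. H3K4me3 with vehicle covered 30.0%, 2.78% and 32.7%. H3K4me1 was most extensive in HoxC, at 16.1% of the window, against 3.22% of HoxA. Counting all 6 lists together, 37.8% of the HoxA window, 5.08% of HoxB and 49.6% of HoxC lay in a peak.

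**Figure D1:**
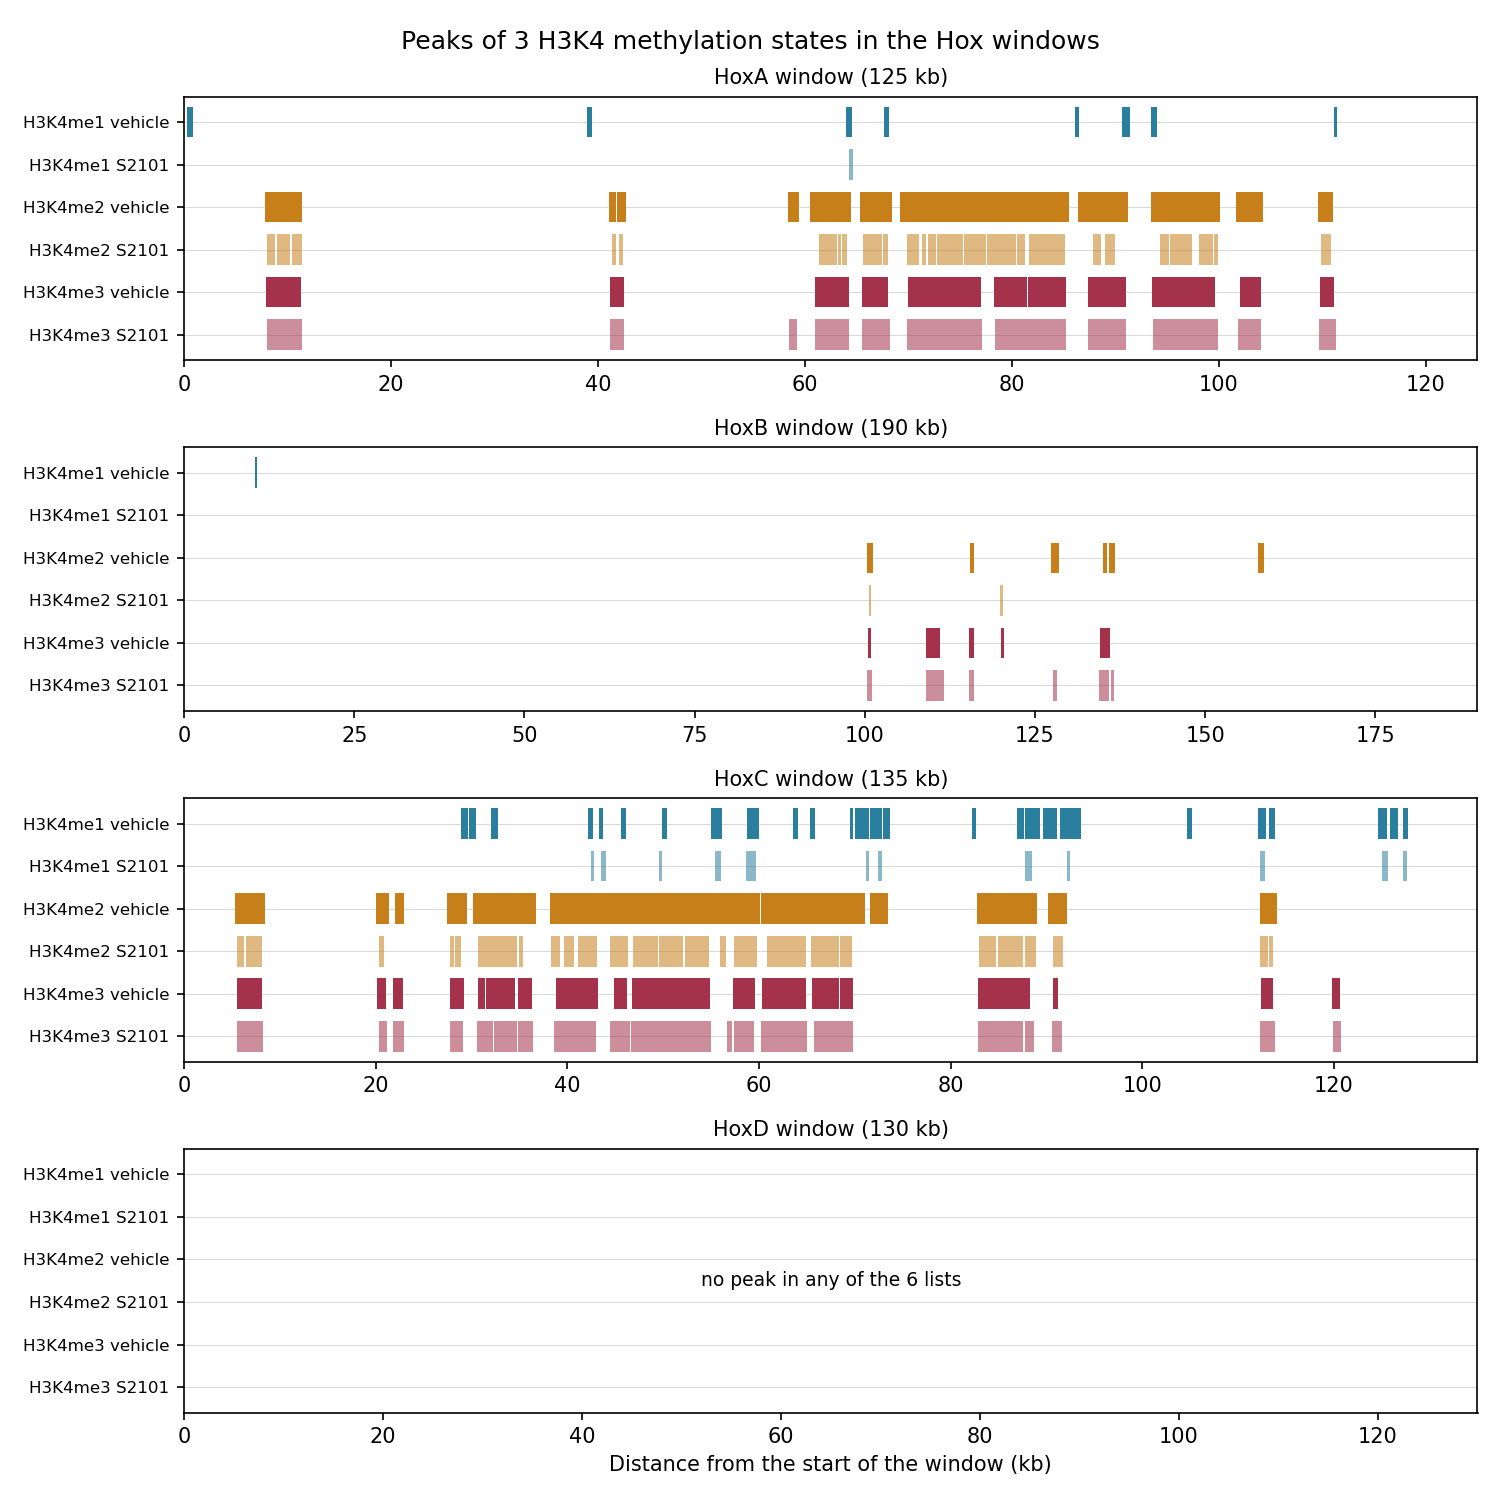
Peaks of each mark and treatment along the 4 windows (x axis, distance from the window's start in kb), each block being 1 peak from its start to its end and each line 1 library. The vehicle H3K4me2 blocks of HoxA and HoxC are long, the S2101 H3K4me2 blocks at the same places are split into shorter ones, and the HoxD panel is empty.

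HoxA and HoxC held more H3K4me2 and H3K4me3 than their flanks, HoxB held more than its higher flank and less than its lower one, and HoxD held less than both. In flanks of the same length as the window, vehicle H3K4me2 covered 2.70% below and 1.23% above HoxA, and no H3K4me3 peak lay in either. Vehicle H3K4me2 covered 0.615% of the flank below HoxC and 8.39% of the flank above it. Vehicle H3K4me1 covered 16.4% of the flank above HoxC, close to its 16.1% within the window, and 7.18% with S2101. The broad H3K4me2 and H3K4me3 of HoxA and HoxC thus lay within the windows, while the H3K4me1 of HoxC went on beyond its higher edge. The flank below HoxB held more vehicle H3K4me2 (4.54%) and H3K4me3 (4.01%) than the HoxB window, and the flank above it more vehicle H3K4me1 (2.58%, against 0.155% in the window), less H3K4me2 (1.15%) and no H3K4me3. The flanks of HoxD held vehicle H3K4me2 over 1.71% below and 1.44% above the window, and H3K4me3 over 1.45% and 1.40%, but no H3K4me1.

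The S2101 lists covered less of the Hox windows in H3K4me1 and H3K4me2, and slightly more in H3K4me3. H3K4me1 covered 26091 bp of the 4 windows with vehicle and 6487 bp with S2101, a ratio of 0.249, against 0.347 over the genome and 0.279 to 0.433 over the 19 autosomes. H3K4me2 covered 108825 bp and 71447 bp, a ratio of 0.657, against 0.467 over the genome and 0.393 to 0.545 over the autosomes. H3K4me3 covered 86937 bp and 93135 bp, a ratio of 1.07, against 1.10 over the genome and 1.09 to 1.11 over the autosomes. The Hox windows thus kept more of their H3K4me2 coverage than any whole autosome did, and less of their H3K4me1 coverage.

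The clusters did not share these ratios. For H3K4me2 the ratio was 0.668 in HoxA (44944 bp with vehicle, 30034 bp with S2101) and 0.692 in HoxC (58796 and 40707 bp), both above the highest autosome. In HoxB it was 0.139 (5085 and 706 bp), below the lowest autosome. For H3K4me1 the ratio was 0.0767 in HoxA (4027 and 309 bp) and 0.284 in HoxC (21769 and 6178 bp), and HoxB had 295 bp with vehicle and none with S2101. HoxC, with most of these bases, thus lay near the lower end of the autosomes' 0.279 to 0.433, and HoxA below that range. Chromosome 15, which holds HoxC, had the highest of these values, 0.433. Chromosome 6, which holds HoxA, had 0.316. With the lists cut to equal length by score, the H3K4me1 ratio was 0.244 in HoxA, 0.382 in HoxC and 0.372 over the 4 windows. The autosomes treated the same way ran from 0.450 to 0.553. With scores of at least 200 the H3K4me1 ratio was 0.217 over the 4 windows, within the autosomes' 0.135 to 0.329. For H3K4me3 the ratio was 1.05 in HoxA (37466 and 39437 bp), 1.07 in HoxC (44182 and 47077 bp) and 1.25 in HoxB (5289 and 6621 bp). HoxA and HoxC lay below the lowest autosome for this mark and HoxB above the highest. An autosome averages over far more peaks than a window, so a window can lie outside the autosomes' range more easily.

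**Figure D2:**
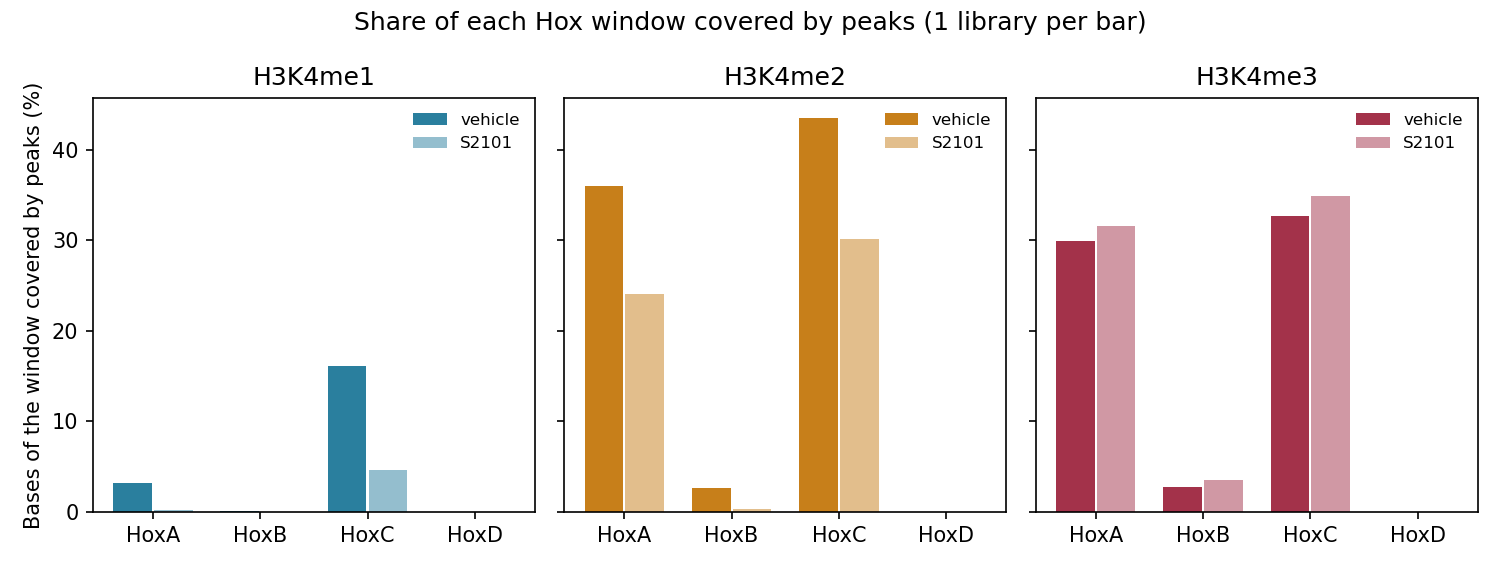
Percent of the bases of each window that lay in peaks (y axis), by mark (panels) and cluster (x axis), with 1 bar per library. In HoxA and HoxC the S2101 bars are lower than vehicle for H3K4me1 and H3K4me2 and slightly higher for H3K4me3, and HoxD has no bar.

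**Figure D3:**
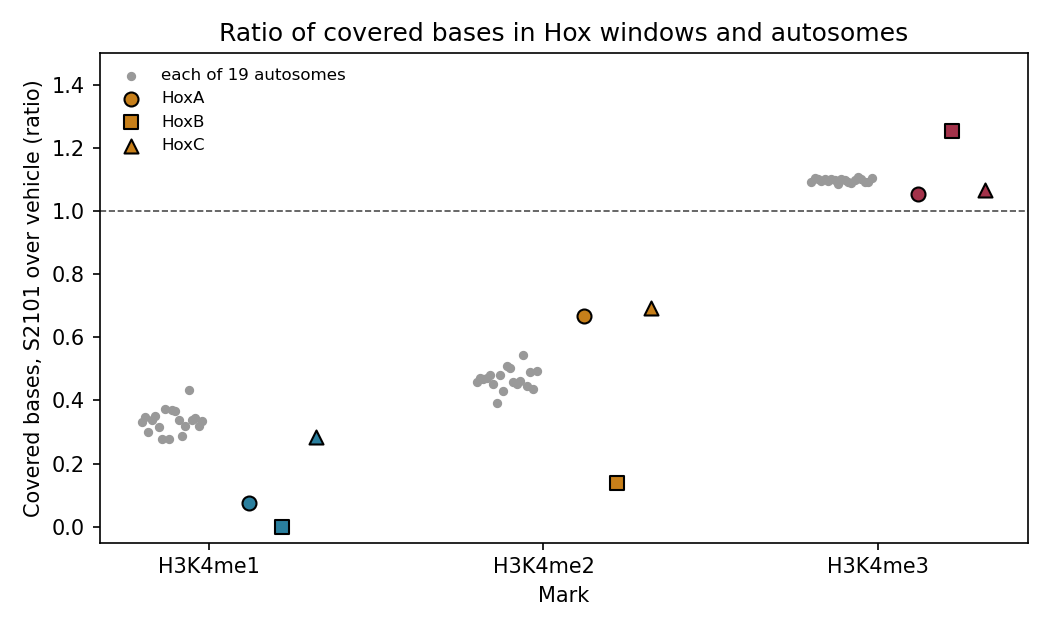
Ratio of covered bases, S2101 over vehicle (y axis), for each of the 19 autosomes (grey points) and for the HoxA, HoxB and HoxC windows (circle, square, triangle), by mark (x axis); the dashed line is a ratio of 1. For H3K4me2 the HoxA and HoxC windows lie above all autosomes, at 0.668 and 0.692, and HoxB lies below them, at 0.139.

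The widest H3K4me2 domains of the HoxA and HoxC windows were among the widest of the genome. In HoxC the vehicle peak at chr15:102783239-102805133 was 21895 bp long, the widest of all 21447 vehicle H3K4me2 peaks. Its neighbour at chr15:102805187-102814970 (9784 bp), which began just after it, ranked 14. In HoxA the vehicle peak at chr6:52169147-52185482 was 16336 bp long and ranked 4. All 3 had a score of 3100, which 0.928% of the peaks of this list reached or passed. Among the 100 widest vehicle H3K4me2 peaks, 2 lay in HoxA and 4 in HoxC.

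With S2101 these domains were still marked, but as strings of shorter peaks. The 21895 bp HoxC domain was met by 11 S2101 H3K4me2 peaks, which covered 16300 bp or 74.4% of it. The 16336 bp HoxA domain was met by 13, which covered 14141 bp or 86.6%, and the 9784 bp HoxC domain by 5, which covered 8251 bp. The widest S2101 H3K4me2 peak was 4090 bp in HoxC (chr15:102805827-102809916, score 1996.46, rank 8 of its list) and 2128 bp in HoxA (chr6:52175334-52177461, score 1278.15). In all, the windows held 29 H3K4me2 peaks with vehicle and 67 with S2101, which covered fewer bases.

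Wide H3K4me2 peaks as a class kept less coverage than those of the Hox windows. The 6 Hox vehicle peaks of at least 5 kb had 79.0% of their bases covered with S2101 (67.3% to 88.9% per peak, median 79.4%). All 234 vehicle peaks of that width, the 6 included, had 59.5% (8.11% to 97.2% per peak, median 59.5%). The 8 Hox peaks under 1 kb had 15.8% of their bases covered, against 23.3% over 6485 such peaks, and the clusters differed: the 2 in HoxA had 44.1%, the 1 in HoxC none, and the others were HoxB peaks. The 7 Hox peaks of 1 to 2 kb had 28.2%, against 44.2% over 9687 such peaks. The 8 of 2 to 5 kb had 55.4%, against 53.2% over 5041. Clearly higher coverage in the Hox windows was thus seen only in the class of at least 5 kb. These width classes were added after the data had been seen.

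The bases that H3K4me2 peaks covered with vehicle only numbered 37806 in the 4 windows. Of these, 31.0% lay in vehicle peaks with no S2101 peak, 42.8% at the outer edges of peaks that had one, and 26.3% in gaps between S2101 peaks within 1 vehicle peak. Over the whole list these shares were 27.9%, 61.5% and 10.6%. The gaps held 37.5% in HoxC, 21.1% in HoxA and 0% in HoxB. Gaps inside broad domains thus made up more of the difference in HoxC and HoxA than over the genome. The edges still held the largest share in both, 41.3% in HoxC and 54.5% in HoxA.

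H3K4me3 lay inside the H3K4me2 domains with vehicle and was left partly uncovered by them with S2101. With vehicle, 99.4% of the H3K4me3 bases of HoxA and 97.8% of those of HoxC lay in H3K4me2 peaks, against 92.1% over the whole list. With S2101 these shares were 73.4% and 82.0%, against 54.5% over the whole list. In HoxB they were 33.0% and 4.91%, so most H3K4me3 there lay outside H3K4me2 peaks under both treatments. H3K4me1 also overlapped H3K4me2 more in HoxC than over the genome. With vehicle, 69.0% of its HoxC bases and 50.4% of its HoxA bases lay in H3K4me2 peaks, against 24.4% over the whole list. With S2101 the shares were 49.6% in HoxC and 0% of 309 bp in HoxA, against 6.42%. Vehicle H3K4me2 covered 43.6% of the HoxC window and 36.0% of HoxA. Overlap can thus be high there wherever H3K4me1 lies, and whether it exceeded that level was not tested.

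In 5 kb steps, HoxA marking with vehicle was concentrated between the middle of the window and its higher end. The stretch just above the middle of the window (52162501 to 52193750) was covered to 84.5% by H3K4me2 with vehicle and to 62.7% with S2101, and by H3K4me3 to 70.4% and 71.4%. The longest stretch of HoxA without a peak of any list was 27523 bp (52111400 to 52138922). It separated a set of H3K4me2 and H3K4me3 peaks near the lower end, where the vehicle H3K4me2 peak chr6:52107811-52111352 was 3542 bp long, from the rest.

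Peaks were spread along the whole of the HoxC window. The stretch just below the middle of the window (102778751 to 102812500) was covered to 95.5% by H3K4me2 with vehicle and to 70.8% with S2101, and by H3K4me3 to 74.1% and 78.2%. Its longest stretch without a peak was 11594 bp (102753464 to 102765057). HoxB had nearly all of its peaks just above the middle of the window, and the 89698 bp below them (96055648 to 96145345) were without a peak. With vehicle, 12 of the 27 HoxC bins held all 3 marks, 5 of 25 in HoxA and 0 of 38 in HoxB. With S2101 these were 6, 1 and 0, and the bins with H3K4me2 and H3K4me3 but no H3K4me1 went from 3 to 9 in HoxC and from 9 to 12 in HoxA. Bins of the genome were not counted by these combinations of marks. H3K4me1 coverage was lower with S2101 over the whole genome (ratio 0.347), so these counts show nothing particular to the Hox windows.

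**Figure D4:**
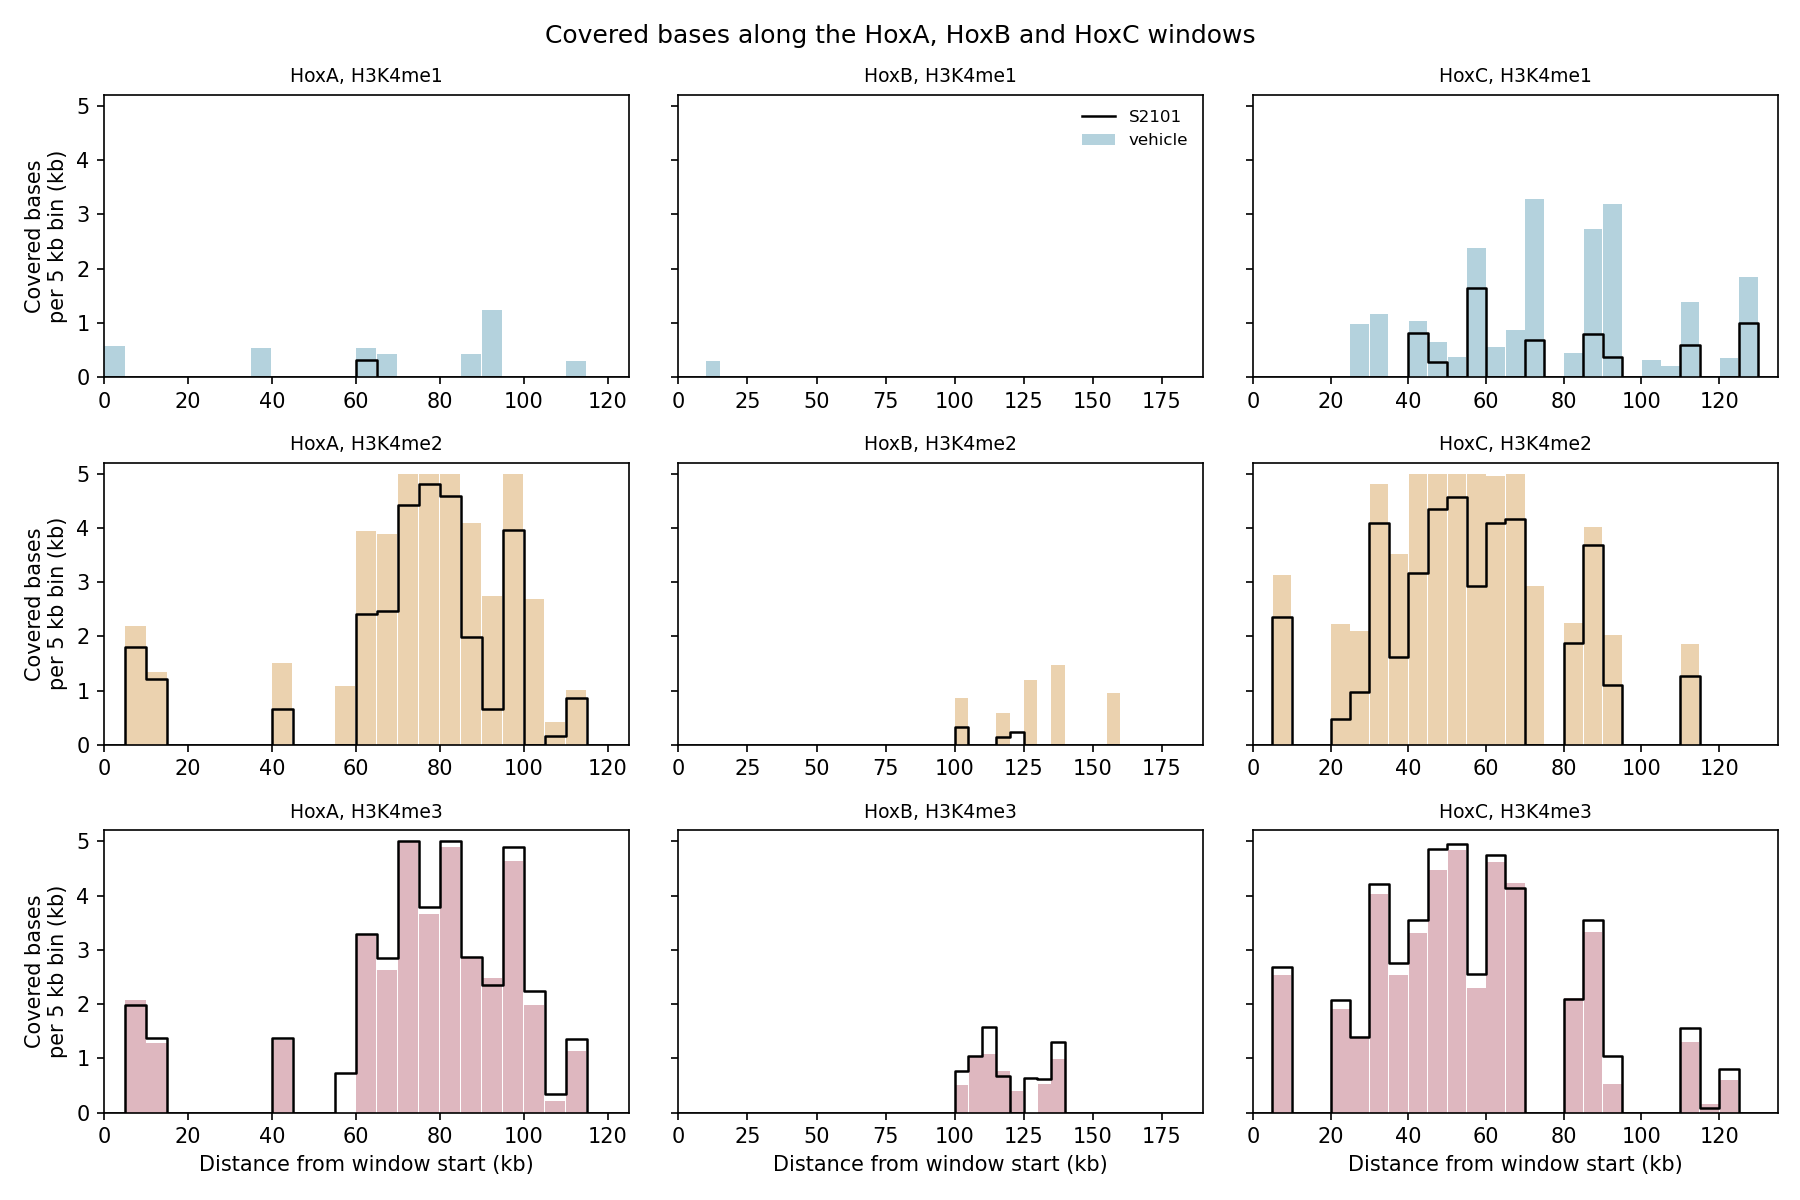
Bases covered per 5 kb bin (y axis, kb) along the HoxA, HoxB and HoxC windows (columns; x axis, distance from the window's start in kb) for each mark (lines of panels), with vehicle as filled bars and S2101 as a black outline. The H3K4me2 outline runs below the bars in nearly all bins, while the H3K4me3 outline follows the bars or lies slightly above in most bins.

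A bin was called lower or higher with S2101 when its covered bases differed at least 2-fold and at least 500 bp were covered in the higher list. For H3K4me1, 12 of 16 bins with enough coverage were lower, against 72.6% of such bins over the genome, and 0 were higher, against 2.43%. For H3K4me2, 14 of 35 were lower, against 54.1%, and 0 higher, against 0.209%. By cluster these were 5 of 14 bins in HoxA, 4 of 16 in HoxC and 5 of 5 in HoxB. For H3K4me3, 0 of 37 were lower, against 0.502%, and 3 were higher, against 5.74%. At these settings the H3K4me1 share stood near its background, and the H3K4me2 share below its own in HoxA and HoxC. Over the alternatives tried, lower bins numbered 4 to 26 for H3K4me1 and 6 to 22 for H3K4me2. The genome's shares were not taken under the alternatives, so these counts cannot be set against a background.

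Counted by peaks, the 3 marks stood in the same order. Pooled H3K4me2 lay on the other side of its background than it did by bins, but HoxA and HoxC did not. Of the 37 vehicle H3K4me1 peaks, 23 had no S2101 peak, against 67.0% of the whole list, and 14 had one (37.8%, exact Clopper-Pearson 95% interval 22.5% to 55.2%). Of the 29 vehicle H3K4me2 peaks, 10 had none, against 25.8%, and 19 had one (65.5%, interval 45.7% to 82.1%). That interval holds the whole list's 74.2%. By cluster, 2 of 11 had none in HoxA, 3 of 12 in HoxC and 5 of 6 in HoxB, so only HoxB lay above the background. Of the 37 vehicle H3K4me3 peaks 1 had none, against 1.30%, and 36 had one (97.3%, interval 85.8% to 99.9%). The intervals cover counting error only, and neighbouring peaks are not independent. In the other direction, 0 of 13 S2101 H3K4me1 peaks lacked a vehicle peak (27.5% over the list), 1 of 67 for H3K4me2 (3.94%) and 4 of 37 for H3K4me3 (8.43%).

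Within HoxC, H3K4me1 and H3K4me2 without H3K4me3 were found beside the broad domain, and this was where the H3K4me2 difference was largest. The vehicle H3K4me2 peaks chr15:102814973-102816074 (1102 bp, score 292.16) and chr15:102816643-102818489 (1847 bp, score 674.36) had no S2101 peak. In the bin from 102815001 to 102820000, H3K4me2 went from 2921 bp to 0, the largest fall of the HoxC window, and H3K4me1 from 3285 bp to 677 bp. No H3K4me3 peak lay in that bin in either list. The region directly below it, up to 102814970, was H3K4me2 and H3K4me3 domain.

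Another H3K4me1 block of HoxC lay at higher coordinates. The widest vehicle H3K4me1 peak of the window, chr15:102836469-102838594 (2126 bp, score 569.58), was met by 1 S2101 peak of 376 bp. Its neighbour chr15:102834626-102836066 (1441 bp, score 553.87) was the highest-scoring vehicle H3K4me1 peak of HoxC with no S2101 peak. In the bin from 102835001 to 102840000, H3K4me1 went from 3192 bp to 376 bp, its largest fall there. In the same bin H3K4me3 went from 521 bp to 1052 bp, the largest HoxC rise for that mark, while H3K4me2 went from 2023 bp to 1095 bp. The widest S2101 H3K4me1 peak of HoxC was chr15:102803629-102804686 (1058 bp, score 326.37), inside the broad domain.

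Chromosome 15, which holds HoxC, was rich in H3K4me1 as a whole. Its H3K4me1 peaks covered 2.33 times the bases of its H3K4me3 peaks with vehicle, against 0.541 to 1.44 on the other 18 autosomes, and 0.910 times with S2101, against 0.137 to 0.484. In the HoxC window itself the ratio was 0.493 and 0.131, and in HoxA 0.107 and 0.00784. The part of this chromosome-wide level in the HoxC result was not tested.

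HoxA H3K4me1 was limited to 8 small vehicle peaks of 298 to 739 bp. The widest, chr6:52190665-52191403 (score 192.47), had no S2101 peak, nor had the highest-scoring, chr6:52138923-52139451 (529 bp, score 203.3). A single S2101 peak of 309 bp, chr6:52164291-52164599 (score 138.08), overlapped a vehicle peak. The bin with the largest fall, 52190001 to 52195000, went from 1246 bp to 0.

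Of the 10 vehicle H3K4me2 peaks with no S2101 H3K4me2 peak, 7 overlapped an H3K4me3 peak with S2101, against 31.1% of the 5542 such peaks over the whole list. By cluster these were 2 of 2 in HoxA, 4 of 5 in HoxB and 1 of 3 in HoxC, the last near the whole list's share. With vehicle, 5 of the 10 overlapped an H3K4me3 peak, against 27.03%. The other 2 of the 7 overlapped one with S2101 only, against 4.94%, which is a small count. At chr6:52201689-52204257 the vehicle H3K4me2 peak (2569 bp, score 826.79) had none, and its bin, 52200001 to 52205000, went from 2694 bp to 0. H3K4me3 at the same place was 1988 bp long with vehicle (chr6:52202065-52204052) and 2237 bp with S2101 (chr6:52201823-52204059). At chr6:52158362-52159445 a vehicle H3K4me2 peak (1084 bp, score 192.16) had none, and an H3K4me3 peak of 723 bp (chr6:52158509-52159231, score 150.96) was called inside it with S2101 only. In HoxB the vehicle H3K4me2 peak chr11:96172319-96173513 (1195 bp, score 149.56) had none, and an H3K4me3 peak of 644 bp (chr11:96172641-96173284, score 201.93) was called inside it with S2101 only. These last 2 H3K4me3 peaks and the HoxC bin at 102835001 gave the 3 higher H3K4me3 bins, and the scores of both peaks were low for a list in which 59.8% of peaks stood at 3100 or more.

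The widest H3K4me3 peaks of HoxA and HoxC differed little in length between treatments where they were not joined. In HoxC the peak chr15:102791793-102799843 (8051 bp, rank 13 with vehicle) matched chr15:102791656-102799945 with S2101 (8290 bp, rank 14). In HoxA the widest with vehicle was chr6:52193579-52199635 (6057 bp), which matched 6253 bp with S2101. The widest with S2101 there, chr6:52169849-52177122 (7274 bp), spanned vehicle peaks of 1314 and 5715 bp, with a short gap between them. The largest falls of H3K4me3 in a bin were small: from 2484 to 2350 bp in HoxA (52190001 to 52195000), from 4237 to 4141 bp in HoxC (102810001 to 102815000) and from 397 bp to 0 in HoxB (96165001 to 96170000). HoxC had 1 H3K4me3 peak with S2101 only, chr15:102801623-102802183 (561 bp, score 152.9).

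HoxB, the cluster with small peaks only, had its widest in H3K4me3. The peak chr11:96153950-96156073 was 2124 bp long with vehicle (score 1188.74) and 2617 bp with S2101 (chr11:96153967-96156583, score 1366.11), and no H3K4me2 peak overlapped it in either list. Of the 6 vehicle H3K4me2 peaks, 5 had no S2101 peak, the highest-scoring of them chr11:96180923-96181767 (845 bp, score 231.36). The bin 96180001 to 96185000 went from 1471 bp to 0 in H3K4me2. A small H3K4me2 peak was called with S2101 only at chr11:96164856-96165236 (381 bp, score 130.03), where a small H3K4me3 peak, chr11:96164953-96165397 (445 bp, score 107.36), was called with vehicle only. HoxB H3K4me2 scores ran from 125.59 to 231.36 with vehicle, below the list's median of 486.16, so these peaks stood nearer the caller's limit than those of HoxA and HoxC, whose medians were 1669.17 and 962.255. Whether the low ratio of HoxB goes with its low scores was not tested.

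In the HoxD window none of 26 bins held a peak of any mark or treatment. The peak-free stretch ran from 74417804 to 74663295 on chromosome 2, 245492 bp in all. It was the 1660th longest of 51284 such stretches between neighbouring peaks, whose median length was 6283.5 bp. At both of its ends stood H3K4me2 and H3K4me3 peaks: the vehicle H3K4me3 peak chr2:74415770-74417654 (1885 bp, score 3100) ended 67346 bp below the window, and chr2:74663322-74665146 (1825 bp, score 3100) began 48321 bp above it. With S2101 both were still at a score of 3100, at 1851 and 1525 bp. The nearest vehicle H3K4me1 peaks were 786756 bp below and 832407 bp above the window. A peak list shows only what passed the caller's threshold, so a lower level of these marks in HoxD, from Hoxd13 to Hoxd1, was not measured here.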

How the data were processed

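Peak lists of 6 ChIP-seq libraries (H3K4me1, H3K4me2 and H3K4me3, each with vehicle and S2101) were used, and the other 6 samples of the series, 4 inputs and 2 H3 samples, were not analysed here. The deposited files give each peak's chromosome, start, end, name and a score. Peaks were called by the authors with MACS in Galaxy, 1 list per library, per the file headers. Bowtie2, deepTools and mm9 are named in the submitters' processing notes. The sources used here do not give what the score stands for, the caller's settings, the input behind each list, how duplicates were handled or how many reads there were, so depth is unknown and nothing was scaled for it. The score, as deposited, was used to describe peaks and, in the alternatives, to cut lists to equal length or to scores of at least 200. Whether equal scores mean the same in different lists is unknown.

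Coordinates are mm9 and 1-based. Peaks were clipped to the 4 windows to count covered bases, and 116 bins of 5 kb were compared. A peak had a counterpart when at least 1 bp overlapped. Intervals of shares are exact 95% Clopper-Pearson intervals. No test was made between treatments, since each mark and treatment has 1 library, and how many cultures a library came from is not stated. The gene and promoter tables are GRCm38.p6, so no gene was placed on a peak, and neither the position of the genes in the windows nor the muscle identity of the cells was checked on marker genes. The regions named are, per cluster and mark, the widest peak in each treatment, the highest-scoring peak found in 1 treatment only, the bins with the largest fall and rise, and the longest stretch without a peak. Other regions named (H3K4me2 peaks without an S2101 peak, their H3K4me3, neighbours of the widest peaks and the peaks next to HoxD) were chosen after their values were seen. The windows, genes and lists were chosen with earlier results of these data known. Alternatives covered the score threshold, list length, peak joining, overlap, bin size, minimum coverage and fold. The interval functions were tested on simulated data against bedtools 2.31.1. Python 3.11.15, numpy 2.4.6, scipy 1.17.1 and matplotlib 3.10.9 were used.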

Additional observations from a re-analysis of the deposited data

How the results depend on the processing

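No paired analysis was possible because each mark and treatment has 1 library, and for the same reason no library could be left out. Of 57 alternative values for the 4 windows together, 20 moved beyond the limits set for each kind of value and 37 did not. Every ratio stayed on the same side of 1, while counts and shares have no direction to change. Some of the 37 could not move. No peak crossed a window edge, so counting peaks with their full length gave the same ratios. A higher minimum coverage or fold can only remove called bins, so a count of 0 stayed 0. The limit for a share of peaks was its counting interval, so the share of vehicle H3K4me1 peaks with a counterpart counts among the 37, although it was 52.6% with lists of equal length and 30.8% with scores of at least 200. With vehicle and S2101 lists cut to equal length by score, the ratio of covered bases was 0.372 for H3K4me1 and 1.06 for H3K4me3 (1.06 also for scores of at least 200), and with peaks within 500 bp joined it was 0.705 for H3K4me2. Treated the same way, the autosomes ran from 0.450 to 0.553 for H3K4me1 at equal length, above the windows' 0.372, and from 0.135 to 0.329 with scores of at least 200, where the windows' 0.217 lay within them. The autosomes' values under alternatives were added after the data had been seen. HoxA H3K4me1 alone went from 0.0767 to 0.244 with lists of equal length. The H3K4me2 ratios of HoxA and HoxC stayed between 0.653 and 0.692 under the score and list length alternatives. Requiring 50% of a peak to be covered, 13.5% of vehicle H3K4me1 peaks and 44.8% of H3K4me2 peaks had a counterpart, and with scores of at least 200, 100% of H3K4me3 peaks had one. Lower H3K4me1 bins numbered 6 at 10 kb, 26 at 2.5 kb, 4 with at least 1.25 kb covered and 7 with scores of at least 200, and 1 bin of 2.5 kb was higher. Lower H3K4me2 bins numbered 6 at 10 kb, 22 at 2.5 kb, and 9 each with at least 1.25 kb, with a 3-fold difference and with scores of at least 200. For H3K4me3, 1 bin of 2.5 kb was lower, and higher bins numbered 1 at 10 kb and 0 with at least 1.25 kb. Bin counts change by construction with the number of bins and peaks that qualify, and the cause of the other moves was not tested. Unknown depth limits all of these values.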
